A study of Mus musculus with 4 samples.

Results

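The cells described here are the hair peg cells of embryonic mouse dorsal epidermis, chosen by their RNA. A barcode was kept if it held at least 2000 genes and under 10% mitochondrial UMIs (unique molecular identifiers, which count captured RNA molecules). It was keratin-gated if Krt5, Krt14, Krt15 and Krt17 together reached at least 10 UMIs per 10000 and Krt1 and Krt10 together stayed under 20. A gated cell was a hair peg cell if Pthlh, Tafa1 and Krt79 together reached at least 2 UMIs per 10000 and exceeded both the germ sum (Shh, Wif1, Lhx2) and the placode sum (Dkk4, Fgf20, Sp5). The rule found 400 hair peg cells among 7471 keratin-gated cells and 11221 kept cells. It also found 828 hair germ cells and 400 hair placode cells, and left 5825 remaining keratin-gated cells, most of the basal layer, with a tied or unclear lead in 18. Because these genes chose the cells, their levels and the cell counts are given as descriptions, with no test.

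There were 4 single-cell libraries, 2 from Ctrl and 2 from TKO embryos at E16.5 by the labels, each from Epcam+ α6+ basal cells sorted from the dorsal skin of 1 embryo. The sources differ on the embryonic day (the study's list of litters gives an earlier day for the single-cell litter), and the files do not settle it. Every embryo was Suv39h2-/- with floxed Suv39h1 (f/f) and floxed Setdb1 (f/f), and every embryo was exposed to tamoxifen. The Ctrl embryos were K14CreERT2- and the TKO embryos K14CreERT2+, so the controls lack Suv39h2 as well, and the comparison is of cells with and without Cre. The K14 promoter drives Cre in basal keratinocytes. The study calls the TKO embryos of its single-cell experiment mosaic, so a TKO library can hold cells that kept H3K9me3. The libraries held 70749496 to 89655247 UMIs each, with 17407 to 27579 UMIs in the median kept cell. Any pair of libraries shared 0 to 4 kept barcodes. Scrublet's automatic threshold marked only 1, 2, 27 and 31 barcodes in Ctrl 1, Ctrl 2, TKO 1 and TKO 2, which is no working doublet call, so no doublet was removed and a rate-based removal was run as an alternative.

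A hair follicle begins as an epidermal placode, buds as a germ that signals through Sonic hedgehog, and then grows down as a peg. In the peg the leading cells stay close to the dermal condensate, while the cells above them take on outer root sheath, early stem cell and upper follicle identities marked by Sox9, Nfatc1, Lgr5, Lrig1 and Krt79. Pthlh encodes parathyroid hormone-related protein, a secreted peptide of skin epithelium, Tafa1 encodes a small secreted protein, and Krt79 is a keratin of the cells that line the hair canal. Suv39h1, Suv39h2 and Setdb1 are histone methyltransferases that place H3K9me3, a mark of silenced chromatin.

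Hair peg cells were a smaller share of the keratin-gated cells in both TKO libraries. There were 128 of 2037 gated cells in Ctrl 1 and 229 of 2570 in Ctrl 2, against 18 of 1399 in TKO 1 and 25 of 1465 in TKO 2. The shares were 6.28% in Ctrl 1 (95% Clopper-Pearson interval 5.27 to 7.43), 8.91% in Ctrl 2 (7.84 to 10.1), 1.29% in TKO 1 (0.764 to 2.03) and 1.71% in TKO 2 (1.11 to 2.51). The mean was 7.60% ± 1.86 (SD, n = 2) in Ctrl and 1.50% ± 0.297 (SD, n = 2) in TKO, and the groups did not overlap. These intervals, and the others here, cover counting error only, and 2 embryos per group let no exact permutation test reach 0.05. Of the cells assigned to peg, germ or placode, hair peg cells made up 30.6% and 34.6% in Ctrl and 9.0% and 7.16% in TKO. Germ cells numbered 223, 327, 79 and 199 and placode cells 67, 105, 103 and 125 in Ctrl 1, Ctrl 2, TKO 1 and TKO 2.

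Krt79 may itself differ by genotype, so the count was repeated without it. With Pthlh and Tafa1 alone the rule found 103, 197, 16 and 13 cells in Ctrl 1, Ctrl 2, TKO 1 and TKO 2. At a stricter minimum of 4 UMIs per 10000 it found 101, 191, 10 and 14. With each cell thinned to 5000 UMIs, where 1 UMI already meets the minimum, the counts were 145, 247, 45 and 45, or 7.16%, 9.68%, 3.22% and 3.08% of the gated cells. The lower share in both TKO libraries was seen under each of these rules. Removing the top doublet scores left 122, 206, 17 and 23 hair peg cells.

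**Figure D1:**
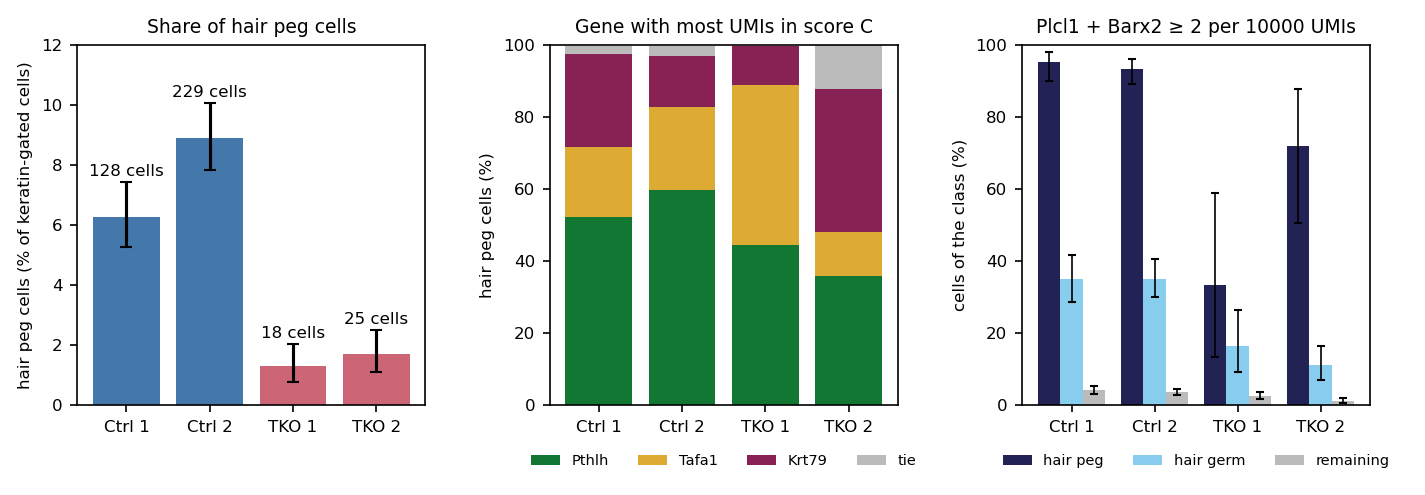
Left, hair peg cells as a percent of keratin-gated cells in each library with 95% Clopper-Pearson intervals and cell counts; middle, percent of hair peg cells by the gene with most UMIs among Pthlh, Tafa1 and Krt79; right, percent of hair peg, hair germ and remaining gated cells in which Plcl1 and Barx2 together reach 2 UMIs per 10000. Both Ctrl bars on the left (6.28% and 8.91%) stand above both TKO bars (1.29% and 1.71%), and on the right the peg bars stand at 95.3% and 93.4% in Ctrl and 33.3% and 72.0% in TKO.

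The genes that admitted the cells differed between libraries. Pthlh had the most UMIs of the 3 genes in 67, 137, 8 and 9 cells of Ctrl 1, Ctrl 2, TKO 1 and TKO 2. Tafa1 led in 25, 53, 8 and 3 cells, and Krt79 in 33, 32, 2 and 10, with ties in the rest. Pthlh was thus the commonest lead in both Ctrl libraries, Pthlh and Tafa1 led equally often in TKO 1, and Krt79 led most often in TKO 2. All 3 genes were detected together in 25 and 60 Ctrl cells and in 2 and 3 TKO cells. The median summed level was 8.22 and 9.91 UMIs per 10000 in Ctrl and 4.36 and 4.48 in TKO, so TKO cells lay nearer to the minimum of 2. Just inside it, between 2 and 3, lay 15, 24, 4 and 7 cells, and just outside, between 1 and 2, lay 22, 26, 10 and 16. The lowest level inside was 2.08, 2.0, 2.04 and 2.04, and the highest outside was 1.86, 1.99, 1.76 and 1.96. The median hair peg cell held 19234.5, 15442, 20849 and 19190 UMIs, and the median remaining cell held 21052, 17209, 30870.5 and 27914.

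Over all hair peg cells of a library, expression is given as CPM, the UMIs of a gene per 1000000 UMIs summed over those cells. Such a sum cannot tell a change within each cell from a change in which cells make up the class. Pthlh stood at 413 and 510 CPM in Ctrl and 140 and 215 CPM in TKO. Tafa1 stood at 391 and 467 CPM in Ctrl and 358 and 121 CPM in TKO. Krt79 stood at 336 and 309 CPM in Ctrl and 63.5 CPM in TKO 1, with 334 CPM in TKO 2. Krt79 in TKO 2 thus fell within the Ctrl range and Pthlh in both TKO libraries below it. Krt15, the follicle-biased basal keratin used in the gate, stood at 5586 and 5232 CPM in Ctrl and 2075 and 2764 CPM in TKO. The placode genes of the rule were higher in TKO hair peg cells, with Dkk4 at 2.27, 2.81, 29.6 and 24.2 CPM and Sp5 at 3.89, 3.24, 25.4 and 20.8 CPM in Ctrl 1, Ctrl 2, TKO 1 and TKO 2.

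Within control skin the 3 admitting genes marked cells of differing profile. Lgr5, the receptor that marks follicle stem and progenitor cells, stood at 231 and 280 CPM in Tafa1-led cells of Ctrl 1 and Ctrl 2. It stood at 64.7 and 84.7 CPM in Pthlh-led cells and at 11.8 and 28.4 CPM in Krt79-led cells, the same order in both libraries. Tafa1-led cells also carried Nfatc1, a factor of quiescent bulge stem cells, at 294 and 332 CPM and Lrig1, an upper follicle stem cell marker, at 778 and 1016 CPM. Krt79-led cells carried Lef1, the nuclear partner of β-catenin, at 253 and 382 CPM.

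The genes highest in hair peg cells over the remaining gated cells of control skin are given here without a test, since the rule used that contrast. Among 3871 genes with at least 50 CPM in the hair peg cells of both Ctrl libraries, 4 of the 15 highest ratios belonged to genes of the rule (Tafa1, Krt79, Pthlh and Lhx2). The other 11 were Tgfb2, Bdnf, Zfpm2, 6330403K07Rik, Hmcn1, Plcl1, Myrip, Sox11, Nlgn1, Synpo2 and Lgr5. Plcl1, a phospholipase C-related protein that binds inositol phosphates, stood at 997 and 1084 CPM in Ctrl hair peg cells, 148 CPM in TKO 1 and 528 CPM in TKO 2. Zfpm2, a cofactor of GATA proteins, stood at 642 and 541 CPM in Ctrl, 0 in TKO 1 and 147 CPM in TKO 2. Lgr5 stood at 90.7 and 130 CPM in Ctrl, 4.23 CPM in TKO 1 and 100 CPM in TKO 2. Of the 11 genes, 11 were below both Ctrl libraries in TKO 1 and 10 in TKO 2, with Lgr5 the exception. Over all genes tested, both TKO libraries lay below both Ctrl libraries for 25.7%. The 11 were picked for high levels in these same Ctrl cells, so nothing is read from that count.

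As a check of the hair peg label chosen after the values had been seen, Plcl1 was summed with Barx2, a homeobox gene of the follicle. The rule used neither. Their sum reached 2 UMIs per 10000 in 122 of 128 hair peg cells of Ctrl 1 (95.3%, Clopper-Pearson interval 90.1 to 98.3) and 214 of 229 of Ctrl 2 (93.4%, 89.4 to 96.3). It did so in 6 of 18 hair peg cells of TKO 1 (33.3%, 13.3 to 59.0) and 18 of 25 of TKO 2 (72.0%, 50.6 to 87.9). The same criterion was met by 4.09%, 3.47%, 2.42% and 1.17% of the remaining gated cells and by 78 of 223, 115 of 327, 13 of 79 and 22 of 199 germ cells. In all, 336 of 357 Ctrl members and 24 of 43 TKO members met it. The share with the pair was lower in TKO germ cells and remaining cells too, so fewer UMIs of the pair in TKO hair peg cells and the admission of other cells by the rule cannot be told apart.

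Members without Plcl1 and Barx2 differed from those with them in Ctrl as well as in TKO, with 6 and 15 Ctrl cells and 12 and 7 TKO cells without the pair. Lef1 stood at 691 and 524 CPM in the TKO 1 and TKO 2 cells without the pair and at 149 and 258 CPM in those with it, while in Ctrl it stood at 139 and 301 CPM without the pair and 138 and 167 CPM with it. Sox9, the outer root sheath and stem cell factor, stood at 70.1 and 142 CPM without the pair and 446 and 362 CPM with it, and in Ctrl at 189 and 119 CPM without it and 349 and 454 CPM with it. Lgr5 had 0 UMIs without the pair in either TKO library and stood at 22.9 and 150 CPM with it, and in Ctrl it had 1 and 0 UMIs without the pair and stood at 94.1 and 138 CPM with it. Dcn, an extracellular matrix proteoglycan gene, stood at 1109 and 1410 CPM without the pair and 34.3 and 421 CPM with it, and in Ctrl at 418 and 780 CPM without it and 266 and 319 CPM with it. Sox9 and Lgr5 were thus lower and Dcn higher without the pair in all 4 libraries. Tgfb2, which encodes transforming growth factor β2, was low in both kinds of TKO cell, at 93.5 and 147 CPM without the pair and 114 and 140 CPM with it, while in Ctrl it stood at 131 and 276 CPM without the pair and 838 and 884 CPM with it. The called changes named below are therefore also given, where they could be fitted, for the members with Plcl1 and Barx2 alone.

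**Figure D2:**
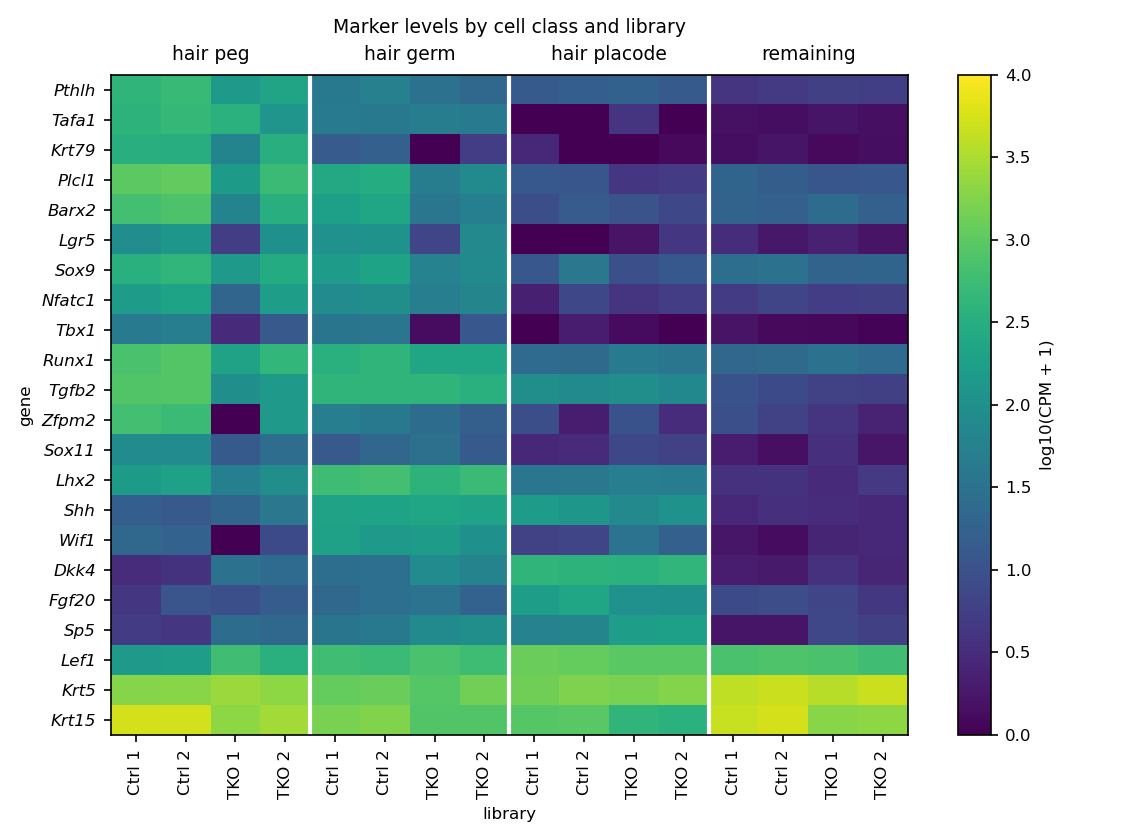
Colour shows log10(CPM + 1) of 22 genes (rows) in the hair peg, hair germ, hair placode and remaining gated cells of each of the 4 libraries (columns). Plcl1, Barx2, Tgfb2 and Zfpm2 are brightest in the Ctrl hair peg columns, Zfpm2 is at 0 in the hair peg cells of TKO 1, and Dkk4 is highest in the placode columns.

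Markers of other cell types were checked by their summed CPM in hair peg cells. The 10 Merkel cell markers summed to 705 and 259 CPM in Ctrl and 36.0 and 19.0 CPM in TKO, and Ccer2 and Piezo2 led them in Ctrl. A UMI of at least 3 of these markers was found in 8 and 6 Ctrl hair peg cells and in 0 of the 18 and 0 of the 25 TKO cells. Of those 14 Ctrl cells, 6 and 3 were Krt79-led, and without them Ccer2 and Atoh1 had 0 UMIs in the Krt79-led cells of both Ctrl libraries. The 8 fibroblast markers summed to 398, 613, 972 and 836 CPM in Ctrl 1, Ctrl 2, TKO 1 and TKO 2. Most of that was Dcn in every library. Col1a2 gave 55.7, 97.3, 10.6 and 17.3 CPM, lower in TKO where Dcn was higher, Col1a1 gave 1.30, 22.7, 0 and 5.19 CPM, and Twist2 was at 0 in all 4. Markers of the dermal condensate (12.1 to 42.4 CPM), immune cells (3.56 to 22.5), melanocytes (14.8 to 77.5), endothelium (12.1 to 29.6), Schwann cells (74.1 to 93.5) and erythroid cells (11.7 to 27.7) were low in every library. The part of these cells in the results was not tested beyond leaving out the Merkel-marked cells.

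The targeted genes were detected in hair peg cells of every library. Suv39h1 stood at 30.1 and 28.5 CPM in Ctrl and 21.2 and 29.4 CPM in TKO, and the groups overlapped. Setdb1 stood at 77.1 and 60.6 CPM in Ctrl and 38.1 and 46.7 CPM in TKO, both below Ctrl (log2 change -0.68, edgeR adjusted p = 0.255). Suv39h2, which every embryo lacks by genotype, gave 13.6, 17.0, 8.47 and 26.0 CPM. UMIs are read near the 3′ end of a transcript, which need not lie in a floxed exon, so these levels do not check the deletion.

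A panel of 10 genes that earlier results of these data had shown to be raised in TKO cells was counted per cell, as a description. The share of cells with a UMI of the panel depends on the UMIs per cell. A cell without one is therefore not shown to have kept H3K9me3. With each cell thinned to 5000 UMIs, a UMI of the panel was found in 3 of 127 and 2 of 228 Ctrl hair peg cells (2.36% and 0.877%). It was found in 14 of 18 cells of TKO 1 (77.8%, 52.4 to 93.6) and 12 of 25 of TKO 2 (48.0%, 27.8 to 68.7). In TKO 1 and TKO 2 germ cells gave 49.4% and 54.5%, placode cells 74.8% and 60.5% and the remaining gated cells 71.3% and 68.8%. Without thinning the hair peg shares were 6.25%, 4.80%, 88.9% and 76.0%.

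The question of the genotype comparison was which genes TKO hair peg cells expressed at another level than Ctrl hair peg cells. UMIs were summed over the hair peg cells of each library (3088326, 4633924, 472400 and 577837 UMIs in Ctrl 1, Ctrl 2, TKO 1 and TKO 2) and tested with edgeR's quasi-likelihood test with Benjamini-Hochberg adjustment over all genes. Leaving out the genes of the rule, 87 of 11149 genes rose in TKO (0.78%) and 49 fell (0.44%) at an adjusted p under 0.05, and 1819 had an unadjusted p under 0.05. The median log2 change of all genes was -0.00. The counts depended on which libraries were used. Without TKO 1, 0 genes rose and 0 fell by the same test, with 752 and 844 at an unadjusted p under 0.05. Without TKO 2, 132 rose and 98 fell, and without Ctrl 1 or Ctrl 2 the counts were 45 or 49 raised and 62 or 60 lowered. DESeq2 called 138 raised and 89 lowered. Among members with Plcl1 and Barx2, 29 rose and 14 fell.

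**Figure D3:**
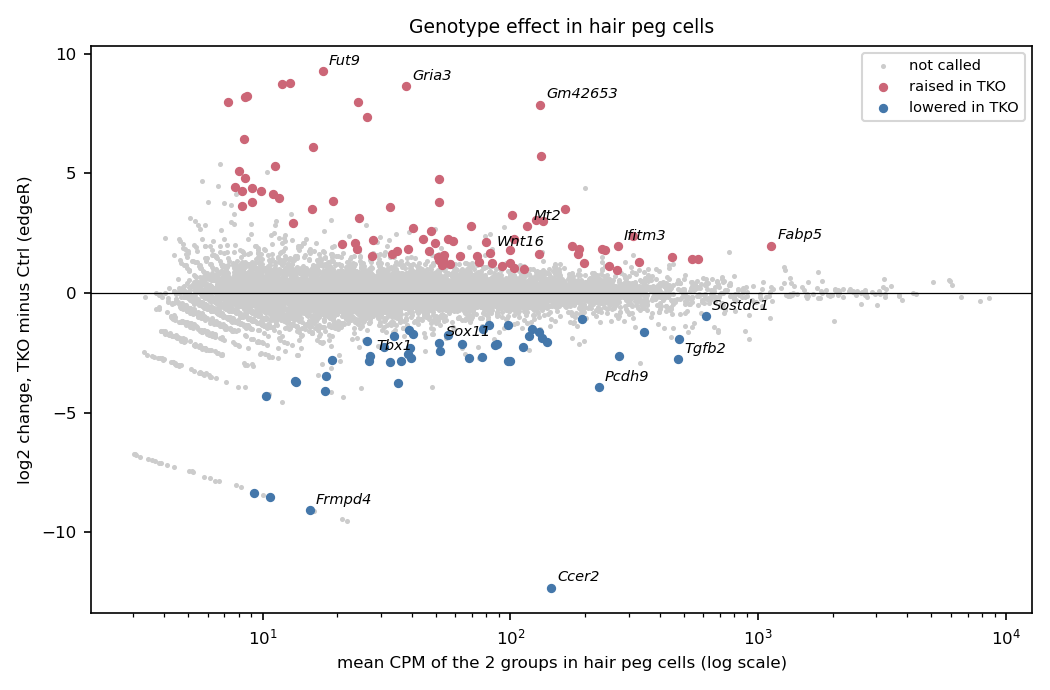
Each point is a gene tested in hair peg cells, with the mean CPM of the 2 groups on a log x axis and the log2 change (TKO minus Ctrl, edgeR) on the y axis; red points rose (87) and blue points fell (49) at an adjusted p under 0.05. Fitted changes beyond about 5 belong to genes at or near 0 UMIs in 1 group, whose size depends on the prior count.

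Genes that fell in TKO included genes that stand out in control hair peg cells over the remaining gated cells. Tgfb2 (chromosome 1, 186354985 to 186438294, minus strand, GRCm39) gave 810 and 846 CPM in Ctrl and 97.4 and 142 CPM in TKO, from 46 and 82 UMIs in the latter. The TKO libraries lay far below the Ctrl libraries (log2 change -2.78, SE 0.22, edgeR adjusted p = 0.00729), and among members with Plcl1 and Barx2 the change was -2.72 (edgeR adjusted p = 0.0011). Ltbp1 and Ltbp4, whose products bind latent TGFβ in the matrix, also fell and were singled out after their values were seen. Ltbp1 gave 140, 144, 31.8 and 31.2 CPM (log2 change -2.17, edgeR adjusted p = 0.0129), and Ltbp4 gave 50.8, 55.0, 12.7 and 17.3 CPM (-1.79, edgeR adjusted p = 0.0384). With Plcl1 and Barx2 their changes were -2.30 (edgeR adjusted p = 0.0104) and -1.72 (edgeR adjusted p = 0.225). For both the TKO values lay together and below the Ctrl values. Of the 11 peg-enriched genes outside the rule, Hmcn1 (log2 change -2.26), Myrip (-2.30), 6330403K07Rik (-2.11) and Sox11 (-2.07) fell as well. With Plcl1 and Barx2 these 4 changes were -2.58, -1.34, -1.60 and -1.79, and Myrip and Sox11 no longer passed (edgeR adjusted p = 0.313 and 0.0538). Counted over all calls, 29 of the 49 lowered genes (59.2%) were at least 4-fold higher in hair peg than in remaining cells of both Ctrl libraries, against 1 of the 87 raised genes (1.15%) and 319 of the 11149 tested (2.86%). Both sides of that count use the same Ctrl hair peg cells, so it is given as a description.

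The largest falls by the naming rule (mean of at least 20 CPM in the higher group, no sign change in any fit without a library) were as follows. Pcdh9, a protocadherin of cell adhesion (chromosome 14, 93250846 to 94128152, minus strand, GRCm39), gave 583 and 268 CPM in Ctrl and 33.9 and 22.5 CPM in TKO. The Ctrl libraries differed from each other but both lay above TKO (log2 change -3.93, SE 0.48, edgeR adjusted p = 0.0183), and the fall was -4.15 (edgeR adjusted p = 0.00668) with Plcl1 and Barx2 and -3.28 without Ctrl 1. Frmpd4, a scaffold of excitatory synapses, had 99, 138, 0 and 0 UMIs in Ctrl 1, Ctrl 2, TKO 1 and TKO 2, at least 10.7-fold lower against a floor of 3 UMIs over the TKO group (edgeR adjusted p = 0.0261). Egflam, an extracellular matrix protein gene, had 67, 97, 0 and 0 UMIs, at least 7.43-fold lower (edgeR adjusted p = 0.0362). Lpar3, a lysophosphatidic acid receptor, had 116, 140, 0 and 2 UMIs, a ratio of 17.4 (counting interval 4.77 to 145, edgeR adjusted p = 0.0382). Lrrc4c had 74, 122, 1 and 1 UMIs, a ratio of 13.3 (3.64 to 111), and the metabotropic glutamate receptor gene Grm4 had 119, 127, 2 and 1 UMIs, a ratio of 11.2 (3.77 to 54.4). Cpa6, a carboxypeptidase gene, gave 67.0, 48.1, 6.35 and 8.65 CPM (log2 change -2.89, edgeR adjusted p = 0.0277), and the noncoding genes 9530026P05Rik (-3.77, edgeR adjusted p = 0.0345) and Gm13481 (76, 122, 0 and 2 UMIs) completed the list with Ccer2. In all of these the TKO libraries lay below both Ctrl libraries. At the stricter minimum of the rule Pcdh9 kept its call and the other 9 did not (edgeR adjusted p = 0.0728 to 0.241). The same held without Krt79 in the rule (edgeR adjusted p = 0.0521 to 0.178 for the other 9). After thinning Pcdh9, Ccer2, Frmpd4 and 9530026P05Rik kept their calls, and Lpar3 and Cpa6 did not. Lrrc4c and Gm13481 also lost theirs by DESeq2 (adjusted p = 0.0675 and 0.0681). Pcdh9 kept its call among members with Plcl1 and Barx2 too, and the other 9 did not. There the changes were -2.64 for Lrrc4c (edgeR adjusted p = 0.208), -2.33 for Grm4 (edgeR adjusted p = 0.367), -2.36 for Cpa6 (edgeR adjusted p = 0.134), -3.03 for 9530026P05Rik (edgeR adjusted p = 0.131), -2.61 for Gm13481 (edgeR adjusted p = 0.208) and -4.04 for Lpar3 (edgeR adjusted p = 0.0724). Frmpd4, Egflam and Ccer2, at 0 UMIs in TKO, had edgeR adjusted p-values of 0.0505, 0.109 and 0.361. Pcdh9, Lrrc4c, Grm4, Cpa6, Gm13481 and 9530026P05Rik overlap other annotated genes on the same strand, between which reads could be split.

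Ccer2 and Piezo2 are also Merkel markers. Ccer2 had 1387, 632, 0 and 0 UMIs, at least 91.5-fold lower (edgeR adjusted p = 0.0433). With the Merkel-marked cells left out Ccer2 fell under the filter on low counts and was not tested. Piezo2, a mechanically gated channel gene, gave 97.1, 78.1, 12.7 and 19.0 CPM (log2 change -2.43, edgeR adjusted p = 0.0215). For Piezo2 the change was -2.21 with the Merkel-marked cells left out (edgeR adjusted p = 0.0181), and it was -1.97 and did not pass among members with Plcl1 and Barx2 (edgeR adjusted p = 0.0538). Of 5 Merkel markers tested, 2 fell, where 0.44% of all genes did. The median of the 5 was -3.96, or -2.43 with genes at 0 in TKO set to their bound.

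Over all 11149 genes tested, the background for this list and those below, 0.78% rose, 0.44% fell and 50.4% had a change below 0. Among outer root sheath and stem cell genes 1 of 16 tested fell, none rose, and the median log2 change was -0.83, with 14 of 16 below 0. Tbx1, a T-box factor of follicle stem cells, was the one that fell, at 43.7 and 50.5 CPM in Ctrl and 2.12 and 12.1 CPM in TKO. Its values did not overlap (log2 change -2.63, SE 0.46, edgeR adjusted p = 0.0491), but it rests on 1 and 7 UMIs in TKO, and the change was -1.99 without TKO 1 and -4.45 without TKO 2. Among members with Plcl1 and Barx2 it was -1.59 and did not pass (edgeR adjusted p = 0.208). Sox9 gave 343, 434, 140 and 289 CPM (log2 change -0.84, edgeR adjusted p = 0.253). Runx1 gave 709, 846, 201 and 438 CPM (-1.27, edgeR adjusted p = 0.128), and Barx2 gave 627, 776, 63.5 and 320 CPM (-1.85, edgeR adjusted p = 0.173). Nfatc1 gave 162 and 210 CPM in Ctrl, 19.1 CPM in TKO 1 and 177 CPM in TKO 2. For Sox9, Runx1 and Barx2 both TKO libraries lay below Ctrl without passing the test, which both TKO libraries did for 25.7% of all genes, and for Nfatc1 the groups overlapped. Of the marker genes not used by the rule, Plcl1 (-1.61, edgeR adjusted p = 0.162) and Lgr5 (-1.0, edgeR adjusted p = 0.509) did not pass, with a median of -1.30.

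Of 18 follicle transcription factors tested 1 fell, none rose, and the median was -0.49. Sox11 gave 83.9 and 84.2 CPM in Ctrl and 12.7 and 26.0 CPM in TKO (log2 change -2.07, edgeR adjusted p = 0.0277), and the change was -2.71 without TKO 2 and -1.79 (edgeR adjusted p = 0.0538) with Plcl1 and Barx2. Lef1 gave 138 and 175 CPM in Ctrl and 591 and 346 CPM in TKO (1.59, edgeR adjusted p = 0.0513), above Ctrl in both but short of the threshold. Of 7 hair canal and upper follicle genes 1 rose, none fell, and the median was -0.02. That gene was Fabp5, a fatty acid-binding protein gene, at 524 and 394 CPM in Ctrl and 2350 and 1251 CPM in TKO (log2 change 1.98, SE 0.32, edgeR adjusted p = 0.0385), with a change of 1.65 (edgeR adjusted p = 0.313) among members with Plcl1 and Barx2. The call of Fabp5 was also lost without Krt79 in the rule (edgeR adjusted p = 0.0916) and without the top doublet scores (edgeR adjusted p = 0.0606). Lrig1 gave 624, 721, 364 and 571 CPM (-0.52, edgeR adjusted p = 0.318).

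Of 35 Wnt pathway genes (median -0.04) 2 rose and 1 fell, where 0.78% and 0.44% of all genes did. The ligand gene Wnt16 gave 42.7 and 36.5 CPM in Ctrl and 125 and 128 CPM in TKO (log2 change 1.69, SE 0.19, edgeR adjusted p = 0.0148). The ligand gene Wnt3 gave 24.9 and 28.3 CPM in Ctrl and 78.3 and 72.7 CPM in TKO (1.50, edgeR adjusted p = 0.0277). For both ligands the TKO libraries lay close together above Ctrl, and among members with Plcl1 and Barx2 the changes were 0.37 and 0.28 and did not pass. Neither passed after thinning (1.01 and 1.25, edgeR adjusted p = 0.281 and 0.0571) or at a minimum of 4 UMIs per 10000 (1.35 and 1.89, edgeR adjusted p = 0.360 and 0.0600). Wnt16 also lost its call without Ctrl 2 or TKO 1, and Wnt3 without any 1 of the 4 libraries. Sostdc1, a secreted antagonist of Wnt and BMP signals, fell from 800 and 836 CPM in Ctrl to 394 and 436 CPM in TKO (log2 change -0.97, edgeR adjusted p = 0.0462), and with Plcl1 and Barx2 its change was -0.68 (edgeR adjusted p = 0.225).

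Of 19 BMP pathway genes 1 rose and 1 fell (Sostdc1 again), with a median of -0.13. The ligand gene Bmp2 gave 31.4, 33.9, 72.0 and 74.4 CPM (log2 change 1.17, edgeR adjusted p = 0.0473), and the change was -0.24 with Plcl1 and Barx2. The call of Bmp2 was also lost with the replicate number as a block (edgeR adjusted p = 0.0589), by DESeq2 (adjusted p = 0.0799) and without any 1 of the 4 libraries. Fst, which encodes the activin and BMP inhibitor follistatin, gave 961 and 1107 CPM in Ctrl and 218 and 479 CPM in TKO (-1.56, edgeR adjusted p = 0.0795). Of 11 Notch pathway genes 1 rose, with a median of 0.30. It was Nrarp, a target and inhibitor of Notch, at 29.8, 33.0, 112 and 74.4 CPM (1.55, edgeR adjusted p = 0.0385), and the receptor gene Notch1 gave 118, 127, 470 and 225 CPM (1.51, edgeR adjusted p = 0.0882). The call of Nrarp was lost with Plcl1 and Barx2 (change 0.53, edgeR adjusted p = 0.796), without Krt79 in the rule (0.53, edgeR adjusted p = 0.411) and after thinning (0.48, edgeR adjusted p = 0.573).

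None of 10 hedgehog genes passed in either direction (median 0.00, 3 at an unadjusted p under 0.05). The receptor and target Ptch1 gave 348, 353, 508 and 533 CPM (0.58, edgeR adjusted p = 0.161), while the transcription factor and target Gli1 gave 35.3, 39.7, 38.1 and 39.8 CPM. None of 9 Eda and NF-κB genes passed (median -0.02), with the receptor gene Edar at 87.1, 104, 165 and 279 CPM (1.22, edgeR adjusted p = 0.0804). None of 15 FGF and EGF receptor genes passed (median -0.17), with Fgfr2 at 776, 672, 483 and 594 CPM. Of 9 PTHrP and calcium signalling genes 1 rose (median -0.16). It was Itpr1, the inositol trisphosphate receptor gene, at 8.42 and 9.50 CPM in Ctrl and 38.1 and 38.1 CPM in TKO (log2 change 2.08, edgeR adjusted p = 0.0279), and with Plcl1 and Barx2 the change of Itpr1 was 1.23 and did not pass (edgeR adjusted p = 0.707). Pth1r, which encodes the receptor of Pthlh, had 0, 2, 0 and 0 UMIs in hair peg cells, at or under the floor in both groups.

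None of 18 follicle adhesion and polarity genes passed (median -0.19), with Ncam1 at 855, 865, 445 and 689 CPM, and none of 22 basement membrane and hemidesmosome genes did (median -0.22), with Itga6, the α6 integrin of the sort, at 356, 335, 239 and 267 CPM. None of 5 follicle keratins outside the rule passed (median 0.31), and none of 11 interfollicular differentiation genes did (median -0.36), with Krtdap at 445, 336, 176 and 242 CPM. Of these lists 7, 6, 3 and 3 genes had an unadjusted p under 0.05.

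Over all 11149 genes tested 5533 had a positive change, 5616 a negative one and 1819 an unadjusted p under 0.05. Of 24 DNA replication genes 22 had a positive change, the median was 0.60 and 1 passed. It was Rrm2, a ribonucleotide reductase subunit gene, at 36.6, 36.9, 135 and 83.1 CPM (log2 change 1.56, edgeR adjusted p = 0.0439). Of 24 mitosis genes 22 had a positive change, the median was 0.33 and none passed, with 1 at an unadjusted p under 0.05. Of 16 cell cycle inhibitors and p53 targets 1 rose (median 0.47). It was Ccng1, the p53 target cyclin G1 gene, at 20.7, 22.0, 91.0 and 53.7 CPM (1.74, edgeR adjusted p = 0.0442), while Cdkn1a gave 92.3, 115, 597 and 163 CPM (1.87, edgeR adjusted p = 0.152). With Plcl1 and Barx2 the changes of Rrm2 and Ccng1 were 1.13 and 1.40 and did not pass (edgeR adjusted p = 0.144 for each). Of 20 immediate early and dissociation genes 17 had a negative change (median -1.17), none passed and 15 had an unadjusted p under 0.05. Fos gave 882, 1775, 258 and 626 CPM and Jun 2481, 3149, 728 and 1736 CPM in Ctrl 1, Ctrl 2, TKO 1 and TKO 2.

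The largest rises were in genes near 0 in Ctrl hair peg cells. Gm42653 (chromosome 5, 70718608 to 70721446, plus strand, GRCm39), an unclassified transcript, gave 1.94 and 0.432 CPM in Ctrl and 387 and 135 CPM in TKO (log2 change 7.88, SE 0.72, edgeR adjusted p = 0.0129). Leaving out TKO 1 gave 6.93 for this transcript, and leaving out Ctrl 1 gave 9.02. Gria3, which encodes a subunit of AMPA-type glutamate receptors, had 0, 1, 52 and 24 UMIs, a ratio of 559 (counting interval 97.3 to 22359, edgeR adjusted p = 0.0129). Fut9, a fucosyltransferase gene, had 0, 0, 15 and 22 UMIs, at least 90.7-fold higher against a floor of 3 UMIs over the Ctrl group (edgeR adjusted p = 0.0129). Every one of these was higher in TKO 1 and in TKO 2 than in both Ctrl libraries. The neuropeptide receptor gene Npffr1 (0, 0, 17 and 9 UMIs) and the noncoding gene Gm11884 (0, 0, 8 and 18 UMIs) were each at least 63.7-fold higher. The transporter gene Abcb1b had 0, 1, 35 and 13 UMIs, a ratio of 353 (60.4 to 14227), and the collagen gene Col28a1 had 2, 0, 34 and 19 UMIs, a ratio of 195 (51.3 to 1651). H2-Eb1, an MHC class II gene, had 1, 2, 20 and 12 UMIs, a ratio of 78.4 (24.5 to 400). The noncoding gene Gm42047 gave 9.07, 1.73, 377 and 144 CPM (5.72, edgeR adjusted p = 0.0171, or 7.16 without Ctrl 1 and 4.81 without Ctrl 2), and the transcription factor gene Tcfl5, known from the testis, had 1, 3, 6 and 18 UMIs (5.31, edgeR adjusted p = 0.0277). Among members with Plcl1 and Barx2, Gm42653 (7.30), Gria3, Abcb1b, H2-Eb1 and Gm42047 (5.69) kept their calls by edgeR, and Fut9, Npffr1, Gm11884, Col28a1 and Tcfl5 could not be fitted. Npffr1 and Abcb1b could not be fitted without TKO 1, nor Gm11884 and Tcfl5 without TKO 2. Of 6 tested genes of the panel that earlier results had shown to be raised, 5 rose (median 8.26, or 6.67 with genes at 0 in Ctrl at their bound), which is no independent evidence of their direction. In all, 60 of the 87 raised genes also rose in the remaining gated cells, where 8.45% of genes did, and 21 of the 49 lowered genes also fell there, where 4.66% did. In germ and placode cells 61 of the 87 also rose, where 3.89% of genes did, and 23 of the 49 also fell, where 2.69% did.

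Of 6 interferon and antiviral genes tested (median 0.60) 2 rose, where 0.78% of all genes did. Ifitm3, a membrane protein gene of antiviral defence, gave 101 and 122 CPM in Ctrl and 536 and 325 CPM in TKO (log2 change 1.95, edgeR adjusted p = 0.0277), and 1.28 (edgeR adjusted p = 0.0480) with Plcl1 and Barx2. Bst2, the tetherin gene, gave 0.648, 0.863, 10.6 and 20.8 CPM (4.28, edgeR adjusted p = 0.0385). Mt2, a metallothionein gene singled out after its values were seen, gave 30.1, 28.9, 235 and 173 CPM (2.79, SE 0.22, edgeR adjusted p = 0.00729). With Plcl1 and Barx2 the changes of Bst2 and Mt2 were 5.03 (edgeR adjusted p = 0.0440) and 2.22 (edgeR adjusted p = 0.00400). Of 4 fibroblast genes 1 rose (median 0.26). It was Dcn, at 272, 348, 910 and 748 CPM (1.43, edgeR adjusted p = 0.0283), with a change of 0.02 among members with Plcl1 and Barx2. None of the 2 dermal condensate, 1 melanocyte, 1 endothelial, 3 Schwann and 2 erythroid markers tested passed (medians -1.36, -1.78, 0.29, 0.00 and 0.56), and 0 immune markers passed the filter.

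**Figure D4:**
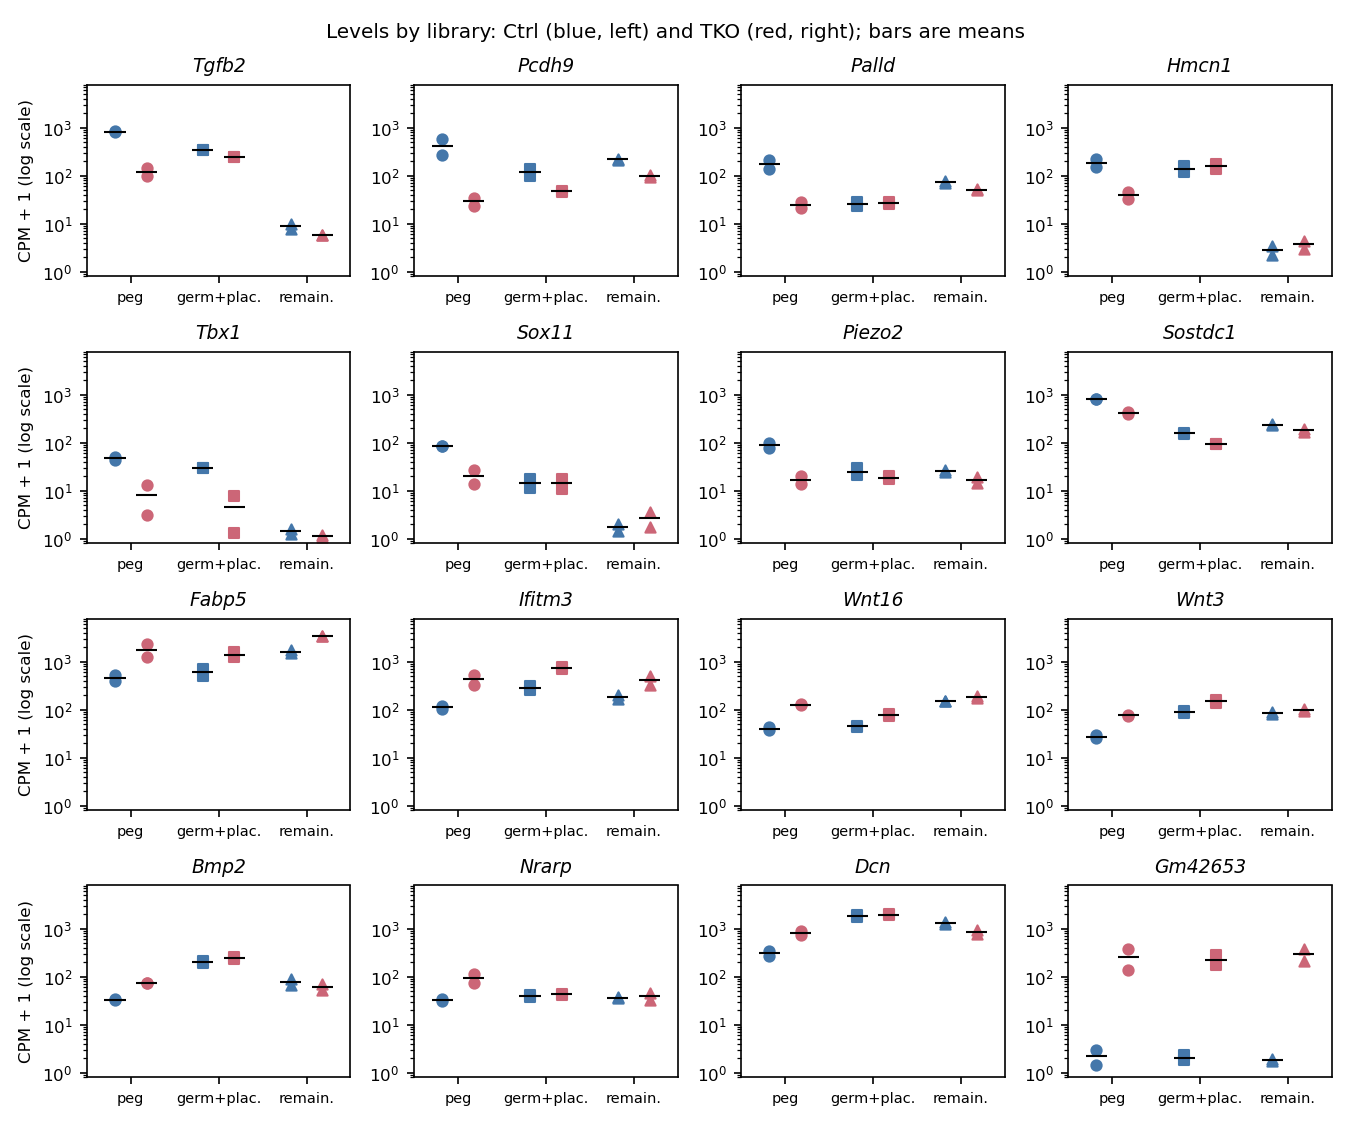
CPM + 1 on a log axis of 16 genes in hair peg (circles), hair germ and placode (squares) and remaining gated cells (triangles), with Ctrl libraries in blue, TKO libraries in red and bars at the group means. Tgfb2 fell from 810 and 846 to 97.4 and 142 CPM in hair peg cells. In germ and placode cells it stood at 352 and 347 CPM in Ctrl and 240 and 242 CPM in TKO.

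Whether the genotype effect in hair peg cells differed from that in the other classes was tested as an interaction, with the library as a block. Against hair germ and placode cells, 17 of 14778 genes had a more positive effect in hair peg cells (0.115%) and 9 a more negative one (0.0609%). Tgfb2 was among them, since germ and placode cells gave 352 and 347 CPM in Ctrl and 240 and 242 CPM in TKO (difference of log2 changes -2.30, edgeR adjusted p = 0.00293). Palld, an actin-binding cytoskeletal gene, gave 214, 136, 27.5 and 20.8 CPM in hair peg cells and 27.6, 22.9, 28.1 and 24.7 CPM in germ and placode cells (-2.95, edgeR adjusted p = 0.00549). Its fall was thus seen in hair peg cells and not in germ and placode cells. Nectin3, a cell adhesion gene, gave 34.6, 37.3, 129 and 213 CPM in hair peg cells and 94.3, 104, 71.4 and 87.1 CPM in germ and placode cells (2.52, edgeR adjusted p = 0.00293). TKO hair peg cells thus stood above the germ and placode cells for Nectin3, and Ctrl hair peg cells below them. The changes within hair peg cells were -2.86 for Palld and 2.26 for Nectin3 (edgeR adjusted p = 0.0195 and 0.0146), and among members with Plcl1 and Barx2 they were -2.07 and 0.89 (edgeR adjusted p = 0.0804 and 0.416). The difference of Nectin3 from germ and placode cells was 0.81 without Krt79 in the rule, 1.31 after thinning and 1.05 with Plcl1 and Barx2, and passed in none of these (edgeR adjusted p = 0.575, 0.225 and 0.349).

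Against the remaining gated cells, 117 of 18062 genes had a more positive effect in hair peg cells (0.648%) and 155 a more negative one (0.858%). Lef1 was more positive in hair peg cells (difference of log2 changes 1.73, edgeR adjusted p = 0.00023), and so was Sox5, a factor gene, at 66.7, 85.5, 67.7 and 178 CPM in hair peg cells and 179, 176, 14.8 and 39.3 CPM in the remaining cells (3.36, edgeR adjusted p = 1.8e-06). Dcn was 272, 348, 910 and 748 CPM in hair peg cells while it fell in the remaining cells (2.0, edgeR adjusted p = 1.5e-05). Fst was more negative in hair peg cells (-1.44, edgeR adjusted p = 0.0028), as were Bdnf (-3.90, edgeR adjusted p = 0.00054) and Myrip (-5.43, edgeR adjusted p = 0.000175). Gria3 and Gm42653, raised in hair peg cells, were raised in the remaining cells too, and their differences (3.32 and -0.66) did not pass. Lef1, Dcn, Fst, Bdnf and Myrip were singled out here after their values were seen. For the counts, leaving out a library gave 67 to 473 calls against germ and placode cells and 113 to 740 against the remaining cells, the most without TKO 2.

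**Figure D5:**
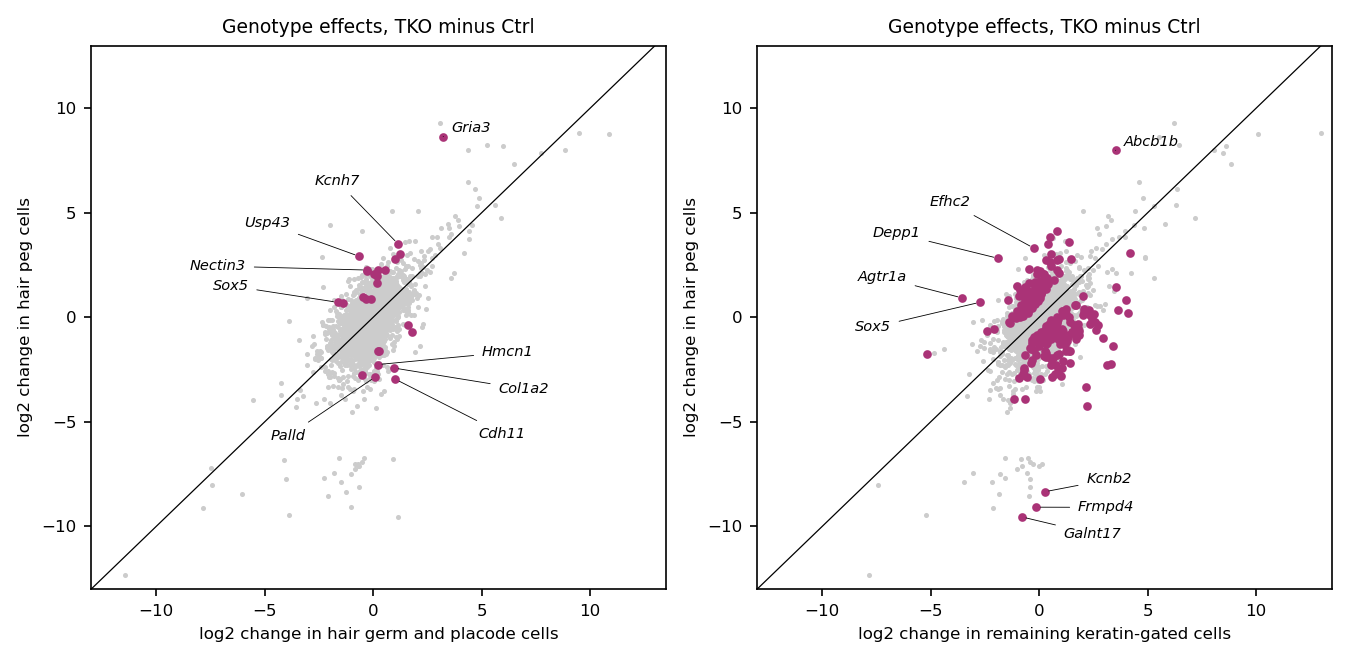
Each point is a gene, with its log2 change (TKO minus Ctrl) in hair peg cells on the y axis against that in hair germ and placode cells (left, 11138 genes) or the remaining gated cells (right, 11132 genes) on the x axis; the line marks equal change and purple points passed the interaction test (26 left, 262 right). Palld and Hmcn1 lie below the line on the left and Gria3, Usp43 and Nectin3 above it.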

How the data were processed

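UMI counts per gene and barcode were used as the authors deposited them, made with Cell Ranger (version 7.1.0 per the file headers) on GRCm39 from 10x Genomics 3′ v3 libraries, as raw integers that were neither normalized nor pooled. UMIs count molecules rather than PCR copies. Genes were placed with GENCODE vM39 on GRCm39, in which 744 of 56980 genes found no match. Cell filters and the class rules are given with the results. Members and gene lists were chosen with earlier results of these data known. Counts were summed per library and class and tested with edgeR 4.0.16 (R 4.3.3; glmQLFit, glmQLFTest, TMM factors, filterByExpr, Benjamini-Hochberg), with genotype as the term, or genotype by class with the library as a block. The study tested single cells, which are not replicates here. The script was tested on simulated counts. DESeq2 1.42.0 was an alternative, and Scrublet was run in scanpy 1.11.5 on Python 3.11.15.

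Named genes were the rule genes and markers, the 10 called genes with the largest change in each direction (mean of at least 20 CPM in the higher group, same sign in every fit without a library that could be made), up to 4 called members of each list or its most abundant members, 5 interactions per direction, the 15 most peg-enriched genes and the 3 targeted genes, and others are said to have been singled out. Ratios for genes with 1 to 3 UMIs in a group carry an exact 95% counting interval, and bounds for genes at 0 use 3 UMIs over the group (0.388 CPM in Ctrl, 2.86 CPM in TKO). Libraries came from separate embryos, so p-values rest on the spread between 2 embryos per group, with variances that edgeR moderates across genes. As the TKO sums hold only 18 and 25 cells, that spread also contains the sampling of cells. Alternatives were another normalization, no filter on low counts, DESeq2, the replicate number as a block, leaving out each library, a minimum of 4 UMIs per 10000, no Krt79, thinning to 5000 UMIs and removal of 144, 157, 66 and 90 top doublet scores (0.8% per 1000 barcodes). Requiring Plcl1 and Barx2 and leaving out Merkel-marked cells were added after seeing the data. A UMI within overlapping annotated genes could be assigned to either. No test of the hair peg share is given because the rule sets it.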

Additional observations from a re-analysis of the deposited data

Results flagged for a closer look

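The genotype effect in hair peg cells differed from that in another class, by edgeR's interaction test with Benjamini-Hochberg adjustment, for the genes below, which had the largest differences of log2 changes. Against hair germ and placode cells the effect was more negative in hair peg cells for Cdh11 (-4.01, adjusted p = 0.018, edgeR), Col1a2 (-3.41, adjusted p = 0.0055, edgeR), Palld (-2.95), Cacng4 (-2.54, adjusted p = 0.048, edgeR) and Hmcn1 (-2.46). The difference of Cdh11 did not pass at a minimum of 4 UMIs per 10000, without Krt79, after thinning, without the top doublet scores, with Plcl1 and Barx2 or without Merkel-marked cells (edgeR adjusted p of 0.060 to 0.160), and that of Cacng4 did not pass at 4 UMIs per 10000 (-1.80) or without Krt79 (-2.20). Col1a2 gave 55.7 and 97.3 CPM in Ctrl and 10.6 and 17.3 CPM in TKO hair peg cells, but 57.1 and 71.2 CPM in Ctrl and 103 and 142 CPM in TKO germ and placode cells. Hmcn1, which encodes the matrix protein hemicentin 1, gave 153, 220, 31.8 and 45.0 CPM in hair peg cells and 121, 157, 179 and 138 CPM in germ and placode cells. The effect was more positive in hair peg cells for Gria3 (5.66), Usp43 (3.61), Nectin3 (2.52), Golga7b (2.48) and Kcnh7 (2.45). With Plcl1 and Barx2, Usp43 (0.98), Nectin3 (1.05), Golga7b (2.13) and Kcnh7 (1.0) did not pass, and Usp43 did not pass without Ctrl 2 (3.37). Gria3 was higher in TKO in both classes, from 0 and 0.216 CPM in Ctrl hair peg cells and 4.66 and 4.46 CPM in Ctrl germ and placode cells.

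Against the remaining gated cells the most negative differences were for Gabrg3 (-14.54), Fstl4 (-13.45), Frmpd4 (-12.1), Galnt17 (-11.58) and Kcnb2 (-11.51). All 5 had 0 UMIs in TKO hair peg cells, so these fitted sizes depend on the prior count and are no measure of the difference. Their Ctrl hair peg UMIs were 10 and 2 for Gabrg3, 68 and 16 for Fstl4, 99 and 138 for Frmpd4, 204 and 100 for Galnt17 and 56 and 87 for Kcnb2. The Ctrl level of Gabrg3 (1.83 CPM) lay under the TKO floor of 2.86 CPM. In the remaining cells Gabrg3 had 5, 2, 911 and 24 UMIs in Ctrl 1, Ctrl 2, TKO 1 and TKO 2, so TKO 1 stood apart, and the difference did not pass without TKO 1 (-10.60, edgeR adjusted p = 0.398) or without Ctrl 1 (-13.18, edgeR adjusted p = 0.158) and turned to 0.81 after thinning. Each of the other 4 also lost its call without at least 1 library, Fstl4 without Ctrl 1, Frmpd4 without Ctrl 2 or TKO 2, Galnt17 without Ctrl 1 or TKO 1, and Kcnb2 without Ctrl 1, Ctrl 2 or TKO 1. The most positive differences were for Depp1 (4.8), Abcb1b (4.8), Agtr1a (4.36), Efhc2 (3.54) and Sox5 (3.36). Depp1 did not pass without Ctrl 2 (4.63), Abcb1b without TKO 1 (3.81), or Agtr1a without Ctrl 1 (4.15) or TKO 2 (3.04). Agtr1a, an angiotensin receptor gene, gave 5.50, 6.26, 4.23 and 17.3 CPM in hair peg cells and 6.40, 5.39, 0.535 and 0.474 CPM in the remaining cells.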

How the results depend on the processing

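The difference in hair peg share (TKO minus Ctrl, -6.10 percentage points) ranged from -6.33 to -5.27 over the alternatives and from -7.41 to -4.79 without a library. Counts of raised and lowered genes (87 and 49) were 46 and 12 at 4 UMIs per 10000, 137 and 130 after thinning, 29 and 14 with Plcl1 and Barx2, 452 and 614 with no filter on low counts (all-gene median -0.34), 138 and 89 by DESeq2, and 0 to 132 and 0 to 98 without a library (both 0 without TKO 1). Raised genes made up 64.0% of the calls, 79.3% at 4 UMIs per 10000, 51.3% after thinning, 42.4% with no filter, 50.2% under the block, and 42.1% and 45.0% without Ctrl 1 and Ctrl 2. Interactions with germ and placode cells (26) numbered 46 after thinning, 49 with Plcl1 and Barx2, 62 without Merkel-marked cells, 54 with DESeq2's size factors, 313 with no filter, and 67 to 473 without a library. Those with the remaining cells (272) numbered 130 at 4 UMIs per 10000, 126 after thinning, 554 with no filter, and 113 to 740 without a library. A lone library left in a group was assumed to vary like the others. Bmp2 reversed to -0.24 with Plcl1 and Barx2, and the Gabrg3 interaction to 0.81 after thinning. The cause of these shifts was not tested. Of 30 named changes that could be fitted with Plcl1 and Barx2, 8 kept their call and 21 lost it. Calls were also lost by 18 of 33 at 4 UMIs per 10000, 13 of 31 without Krt79 and 7 of 26 after thinning. A further 7 of 34 lost theirs without the top doublet scores and 3 of 35 by DESeq2, where the same gene can count under several alternatives. Of 20 named interactions, 10 lost their call at 4 UMIs per 10000, 10 without Krt79, 13 after thinning and 9 with Plcl1 and Barx2.

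The replicate numbers were not treated as pairs. The same-number correlation was 0.0581, but with 2 libraries per group both same-number pairs must give the same value. It therefore cannot settle whether libraries of the same number share a litter or a run. With the replicate block 116 genes rose and 115 fell, and 34 of 35 named changes kept their call, all but Bmp2 (adjusted p = 0.0589, edgeR).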
